A study of Homo sapiens with 8 samples.

Results

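The S100 genes described here are the 10 genes S100A2, S100A3, S100A4, S100A6, S100A10, S100A11, S100A13, S100A14, S100A16 and S100P, taken by their gene names from the expression tables of all 8 libraries, which list 60649 gene identifiers. RNA-seq of polyA RNA was performed in HCT116, a human colorectal cancer cell line, and in UF1hypo, a clone of HCT116 in which 1 allele of UHRF1 had been disrupted. Lentiviral hairpins, either a scrambled control called shScr or one that targets UHRF1 called shUHRF1, were kept in stable pools of both lines under puromycin, which gave 4 groups of 2 libraries: HCT116 shScr, HCT116 shUHRF1, UF1hypo shScr and UF1hypo shUHRF1. UHRF1 recruits the maintenance methyltransferase DNMT1 to newly replicated DNA, and the study asked how cells with different starting amounts of UHRF1 respond to a further loss. The labels give HCT116 as the cell line of all libraries, and the titles tell UF1hypo apart. UF1hypo is a single clone, so a difference between it and HCT116 belongs to that clone and cannot be told apart from the heterozygous allele.

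S100 proteins are small calcium-binding proteins with a pair of EF-hand motifs in each chain, and most of them act as dimers. Calcium opens a binding surface through which they reach partners such as annexins, the cytoskeleton and, outside the cell, receptors such as RAGE. In epithelia they take part in membrane repair, motility and stress responses, and several are used as markers of tumour progression in the colon and pancreas. Of the 10 genes, 9 lie in the 1q21 region of chromosome 1 and S100P lies on chromosome 4.

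The promoters of the genes whose RNA differed most are shown first, together with that of S100A6, the member with the highest RNA level, as the comparison. Each sequence runs 5′ to 3′ along the gene's strand over 300 bases, from 250 before to 50 after an annotated start, is taken from RefSeq on GRCh38.p14, and has its CG dinucleotides, the sites of maintenance methylation, in capitals.
S100A4, chr1:153545757-153546056, minus strand: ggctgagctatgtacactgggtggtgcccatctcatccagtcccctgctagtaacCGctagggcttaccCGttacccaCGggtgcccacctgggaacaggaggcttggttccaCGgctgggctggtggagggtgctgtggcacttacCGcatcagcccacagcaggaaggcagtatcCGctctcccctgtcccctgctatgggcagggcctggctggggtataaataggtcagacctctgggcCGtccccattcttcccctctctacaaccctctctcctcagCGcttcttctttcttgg
S100A3, chr1:153549209-153549508, minus strand: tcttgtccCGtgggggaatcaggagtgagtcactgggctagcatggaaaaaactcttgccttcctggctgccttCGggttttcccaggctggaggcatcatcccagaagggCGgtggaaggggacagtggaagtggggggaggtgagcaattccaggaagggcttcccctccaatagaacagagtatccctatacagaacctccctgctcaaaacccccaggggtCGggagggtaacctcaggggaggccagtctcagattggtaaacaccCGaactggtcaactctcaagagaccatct
S100A2, first of 2 starts, chr1:153565795-153566094, minus strand: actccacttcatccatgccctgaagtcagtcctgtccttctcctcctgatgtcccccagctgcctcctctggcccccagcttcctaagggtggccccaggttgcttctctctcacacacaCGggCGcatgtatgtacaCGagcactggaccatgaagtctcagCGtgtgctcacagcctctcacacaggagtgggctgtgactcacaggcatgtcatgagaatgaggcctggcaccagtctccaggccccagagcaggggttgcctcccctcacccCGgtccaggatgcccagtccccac
S100P, chr4:6693628-6693927, plus strand: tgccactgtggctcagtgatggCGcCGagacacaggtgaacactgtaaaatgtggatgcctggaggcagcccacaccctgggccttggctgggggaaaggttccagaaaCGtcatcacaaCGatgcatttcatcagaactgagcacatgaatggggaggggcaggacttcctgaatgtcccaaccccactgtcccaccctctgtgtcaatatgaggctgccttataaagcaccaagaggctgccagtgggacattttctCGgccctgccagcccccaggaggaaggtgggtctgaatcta
S100A6, chr1:153535942-153536241, minus strand: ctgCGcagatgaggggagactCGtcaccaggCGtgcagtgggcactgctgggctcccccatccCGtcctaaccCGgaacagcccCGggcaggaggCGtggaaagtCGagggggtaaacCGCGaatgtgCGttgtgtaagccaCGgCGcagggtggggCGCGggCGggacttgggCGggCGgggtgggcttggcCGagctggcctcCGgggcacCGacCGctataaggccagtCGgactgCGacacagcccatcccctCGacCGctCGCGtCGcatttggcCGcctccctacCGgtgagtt
CG dinucleotides were sparse in the first 4 sequences, with 8 in S100A4 and 5 each in S100A3, S100A2 and S100P, against 31 in S100A6. The median of all 35116 promoters of the table was 14, and the quartiles were 4 and 28.

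All 10 members matched the promoter table, with 14 promoters because S100A2 and S100A16 have 2 starts each and S100A13 has 3. S100A10, with 32 CG dinucleotides, S100A6 and S100A11, with 22, had the richest promoters. The 3 starts of S100A13 had 19, 11 and 12. The second start of S100A2 had 4. S100A14 had 5, and the starts of S100A16 had 3 and 8, and neither of these genes is among those whose RNA differed most. Promoters with 8 or fewer made up 41.6% of the table, so the sparse S100 promoters were not unusual among promoters. The letters TATAAA occurred at position -31 in S100A4 and at position -28 in S100P, counted from 0 at the start, and at position -29 of the second start of S100A13, while 11.5% of all promoters held them. TGANTCA, the core letters of an AP-1 site, occurred in S100A2 at position -52 and in S100A3 at position -225, against 7.71% of all promoters. TTCNNNGAA, the core letters of a STAT site, occurred in S100A3 alone among the members, at position -100, against 7.66% of all promoters. GGGCGG, the core letters of an SP1 site, was found in the promoters of S100A3, S100A6, S100A10 and S100A11, in the first of S100A13 and in the second of S100A16, against 45.0% of all promoters. Both strands were searched for each of these, the matches of different motifs in the S100A3 promoter did not overlap, and such a match describes letters and not a bound factor. DNA methylation was not analysed here.

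**Figure D1:**
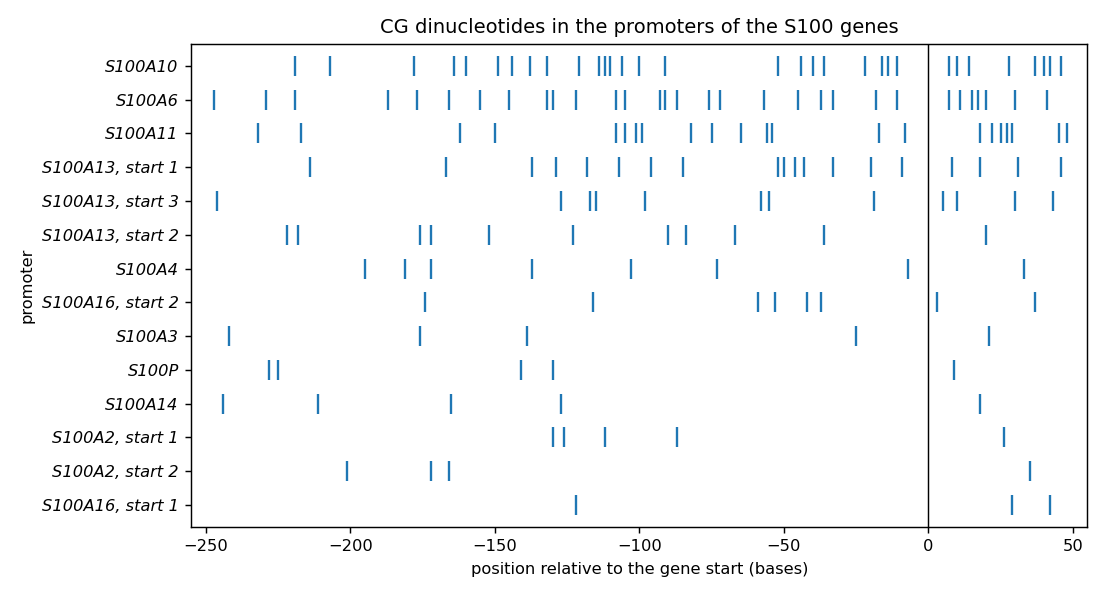
CG dinucleotides in the promoters of the S100 genes by distance from the annotated start in bases, 1 line per promoter and 1 mark per dinucleotide. The promoters of S100A6 and S100A10 carry 31 and 32 marks and that of S100A4 carries 8.

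RNA levels are given as TPM, a measure of transcript abundance that the authors scaled for gene length and to a total of 1000000 in each library. How many reads lie behind a value is unknown, because the tables hold no counts. UHRF1 itself, in HCT116, showed TPM values of 87.5 and 98.4 with shScr and of 31.7 and 32.7 with shUHRF1. In UF1hypo it had 47.3 and 50.6 with shScr and 34.1 and 21.1 with shUHRF1. The shUHRF1 libraries were below their shScr libraries in both lines. Knockdown had a log2 fold change of -1.5 (SE 0.222) in HCT116 and -0.84 (SE 0.221) in UF1hypo, with adjusted p-values from limma of 0.0564 and 0.0406. UF1hypo shScr against HCT116 shScr had -0.91 (SE 0.222), with an adjusted p of 0.0545. Depth ranged from 5.42 to 7.83 gigabases of aligned sequence. Markers of epithelium were present, with EPCAM between 174 and 372 and high keratins KRT8, KRT18 and KRT19, whereas VIL1, CDX1 and LGALS4 were below 1, so that 6 of 9 epithelial markers exceeded a mean TPM of 1. Their summed TPM was 4354 to 4408 in HCT116 shScr and 5485 to 5604 in HCT116 shUHRF1. It was 8812 to 9086 in UF1hypo shScr and 9857 to 12710 in UF1hypo shUHRF1. This sum was mostly KRT8, KRT18 and KRT19, and it was higher where S100A2 and S100A3 were higher. EPCAM did not follow it, with 363 and 372 in HCT116 shScr and 302 and 311 in HCT116 shUHRF1. In UF1hypo EPCAM had 357 and 326.5 with shScr and 174 and 314 with shUHRF1. CDH1 and CDX2 were highest in UF1hypo shUHRF1, at up to 111.5 and 18.25. Of 10 leukocyte markers, 1 exceeded a mean TPM of 1, the T cell gene CD3D, and their summed TPM was 1.69 to 2.24 outside UF1hypo shUHRF1 and 6.65 to 10.1 within it. CD3D did not exceed 0.349 outside that group and had 5.05 and 2.99 within it, while PTPRC did not exceed 0.0728 in any library and FCGR3B was listed at 0. The summed TPM of 6 fibroblast markers was 21.2 to 28.9 outside and 38.3 to 66.2 within UF1hypo shUHRF1, nearly all of it COL1A1, and that of 4 endothelial markers did not exceed 0.626. The part of these markers in the S100 results was not tested. In bulk RNA, fewer cells with a transcript and less transcript per cell cannot be told apart.

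In every group S100A6, or calcyclin, a growth-associated partner of annexins, was the highest member and S100P the lowest. S100A6 ranked between 20 and 51 among protein-coding genes and made up 44.1% to 57.6% of the summed S100 TPM. In HCT116 shScr the mean TPM then descended through S100A10 (348), S100A14 (331), S100A11 (311), S100A16 (251), S100A4 (143), S100A13 (103), S100A2 (18.8), S100A3 (9.52) and S100P (0.667). S100A10 and S100A14 overlapped between libraries there, and no other neighbours did. The order differed in UF1hypo shScr, where S100A4 stood directly below S100A6 with a mean of 1505 and S100A2 reached the level of S100A13, at 135 each. The overlapping neighbours in that group were S100A10 with S100A16 and S100A13 with S100A2. In HCT116 shUHRF1 they were S100A16 with S100A4, and in UF1hypo shUHRF1 S100A10 overlapped both S100A4 and S100A11, and S100A3 overlapped S100A13.

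**Figure D2:**
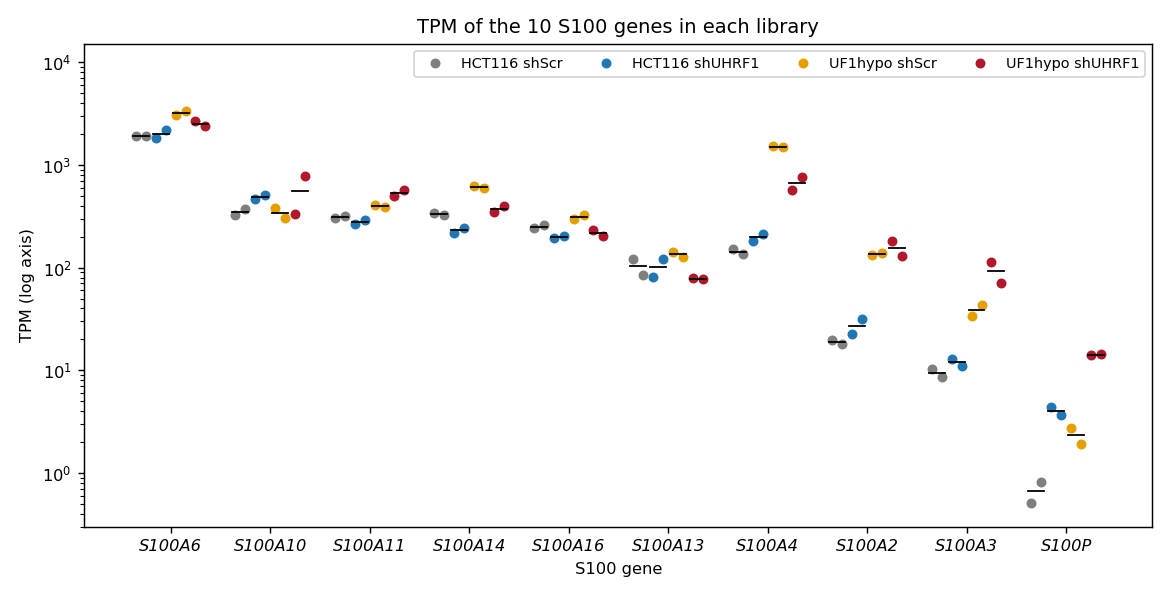
TPM of the 10 S100 genes on a logarithmic axis in the 4 groups, with 1 point per library and a bar at the mean. S100A4 lies at 136 and 150.3 in HCT116 shScr and at 1491 and 1519 in UF1hypo shScr, and S100P is the lowest member in each group.

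Differences between groups were tested with limma on log2(TPM + 1) over all 8 libraries and all protein-coding genes, adjusted by the method of Benjamini and Hochberg. A gene was called at an adjusted p below 0.05 and an absolute log2 fold change above 1. The adjusted p-values below are from this fit, and the log2 fold changes are on the log2(TPM + 1) scale, which understates changes of genes with low TPM. An exact permutation test of 1 gene with groups of 2 cannot reach a p below 0.33. Nothing in the labels states that replicates were separate cultures, so the p-values measure the spread between these libraries.

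The clone differed from its parent line most in S100A4, S100A2 and S100A3. UF1hypo shScr was compared with HCT116 shScr, and 3 of 10 members were called higher, against 2.59% of the 12856 genes tested. No member was called lower, against 0.949%. At an adjusted p below 0.05 regardless of size, 6 members were higher, against 3.41% of genes, and 0 were lower, against 1.36%. The libraries of the groups did not overlap for 9 members, which were all higher, against 29.1% of genes higher and 37.2% lower. The median log2 fold change was 0.80 over the members and -0.05 over all genes tested.

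S100A4 (ENSG00000196154.12; chromosome 1, 153543613 to 153550136, minus strand), also called metastasin, binds nonmuscle myosin IIA and promotes motility. Its TPM was 150.3 and 136 in HCT116 shScr and 1519 and 1491 in UF1hypo shScr. The groups were far apart, and the means of 143 ± 10.1 and 1505 ± 19.4 (SD, n = 2 each) stood in a ratio of 10.5. This was a log2 fold change of 3.39 (SE 0.170, 95% interval 3.0 to 3.77) with an adjusted p of 2.43e-05. Among protein-coding genes S100A4 ranked 1067 and 1182 in the parental libraries and 68 and 76 in those of the clone.

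S100A2 (ENSG00000196754.13; chromosome 1, 153561108 to 153567890, minus strand) is a mostly nuclear member of epithelial cells. Its TPM was 19.7 and 17.9 in HCT116 shScr and 132 and 137 in UF1hypo shScr. Both clone libraries were above both parental ones, with means of 18.8 ± 1.24 and 135 ± 3.51 and a ratio of 7.17. On the log2 scale the change was 2.78 (SE 0.217, 95% interval 2.28 to 3.27) with an adjusted p of 0.000208.

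S100A3 (ENSG00000188015.10; chromosome 1, 153547329 to 153549258, minus strand) is a cysteine-rich member best known from the hair cuticle. Its TPM was 10.4 and 8.65 in HCT116 shScr and 33.9 and 43.2 in UF1hypo shScr. The groups did not overlap, and the ratio of the means was 4.05. The difference was 1.91 on the log2 scale (SE 0.250, 95% interval 1.34 to 2.48), with an adjusted p of 0.00375. The call was lost without HCT116 shScr replicate 2, at an adjusted p of 0.0516, and without UF1hypo shScr replicate 2, at 0.0509. S100A3 lies inside the annotated span of S100A4 on the same strand, but the exons of the genes share 0 bases.

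S100A14, S100A6 and S100P were higher in the clone at an adjusted p below 0.05 but below the size of a call. S100A14, an atypical member of epithelial cells, had a TPM of 339 and 323 in HCT116 shScr and 619 and 592 in UF1hypo shScr. S100A6 had 1917 and 1902 in HCT116 shScr and 3051 and 3309.8 in UF1hypo shScr. S100P, a member raised in many carcinomas that binds ezrin and RAGE, had 0.509 and 0.824 in HCT116 shScr and 2.74 and 1.92 in UF1hypo shScr. In each of the 3 genes the clone libraries lay above both parental ones. The log2 fold changes from limma were 0.87 (SE 0.136, adjusted p of 0.00828) for S100A14, 0.73 (SE 0.138, adjusted p of 0.0188) for S100A6 and 0.99 (SE 0.230, adjusted p of 0.046) for S100P. Without any 1 library of the comparison, these adjusted p-values rose to between 0.0933 and 0.114, between 0.116 and 0.220, and between 0.149 and 0.356. In other settings the adjusted p of S100A6 was 0.05 or above in 2 of 10 and that of S100P in 4 of 10, among them the replicate block (0.088). S100P was called with a pseudocount of 0.1, at a log2 fold change of 1.67, and with median-ratio scaling, at 1.01. Its TPM exceeded 1, the condition for testing, only in the clone libraries of this comparison.

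The other 4 members did not pass the test between the lines. S100A11, a partner of annexin A1, had a TPM of 305 and 317 in HCT116 shScr and 403 and 392 in UF1hypo shScr, with a log2 fold change of 0.35 (SE 0.133, adjusted p of 0.195 from limma). S100A13, which takes part in the nonclassical export of FGF1 and IL1A, had 122 and 85.1 against 142 and 128, with 0.40 (SE 0.231, adjusted p of 0.41). S100A16, a widely expressed member, had 241 and 260.5 against 295 and 322, with 0.30 (SE 0.140, adjusted p of 0.305). All 3 had both clone libraries above both parental ones. In 9 of 10 other settings S100A11 and S100A16 each had an adjusted p of 0.05 or above, and S100A13 did in all 10. S100A10, which forms a tetramer with annexin A2 and has lost calcium binding, had a log2 fold change of -0.03 with a 95% interval from -0.78 to 0.72. Its libraries overlapped, at 322 and 375 in HCT116 shScr and 383 and 302 in UF1hypo shScr.

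**Figure D3:**
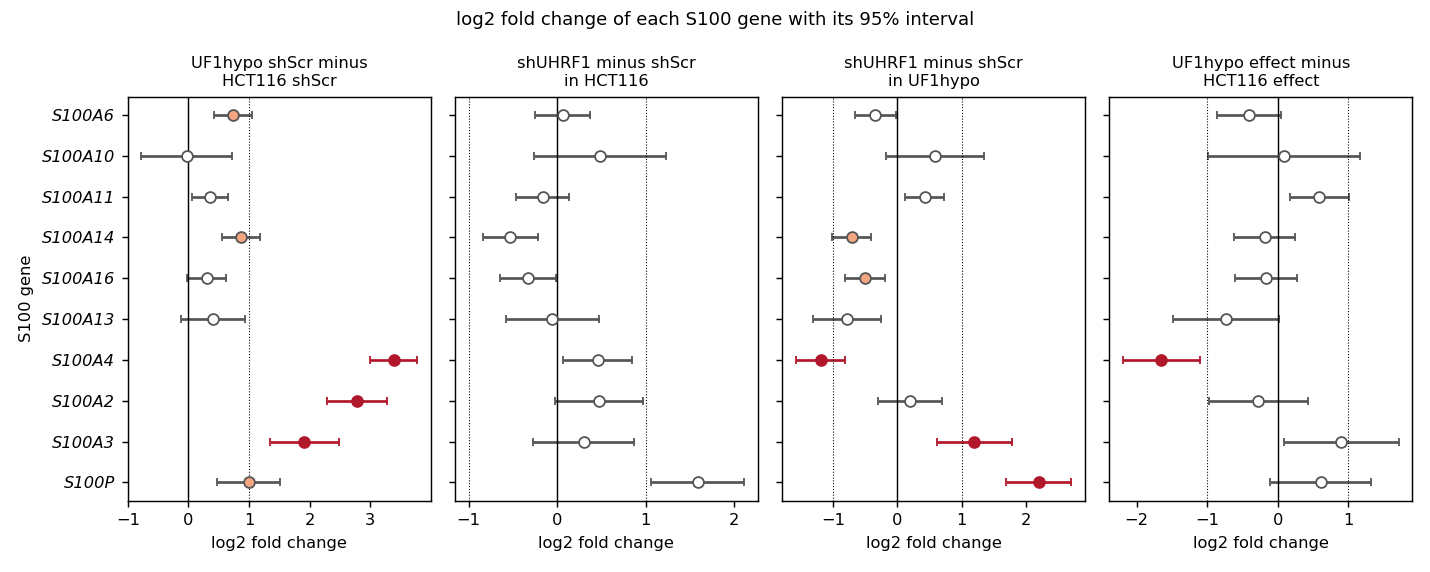
Log2 fold changes of the S100 genes on the log2(TPM + 1) scale with their 95% intervals from limma, in 1 panel per comparison. Red points are called, orange points have an adjusted p below 0.05 only and white points neither, and dotted lines mark log2 fold changes of 1 and -1. S100A4 is at 3.39 between the lines and at -1.19 after knockdown in UF1hypo.

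The knockdown of UHRF1 in HCT116 was tested next. By limma 0 of 10 members were called, against 0.0708% of the 12704 genes tested, which is 9 genes. At an unadjusted p below 0.05 there were 4 members and 810 genes in all. The groups did not overlap for 5 members that were higher, against 20.1% of genes, and for 3 that were lower, against 29.3%. The median log2 fold change was 0.18 over the members and -0.03 over all genes tested.

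S100P (ENSG00000163993.7; chromosome 4, 6693878 to 6697170, plus strand) came closest to a call in HCT116. Its TPM was 0.509 and 0.824 in shScr and 4.35 and 3.66 in shUHRF1. Both knockdown libraries were above both controls, and the ratio of the means was 6.01. The log2 fold change was 1.59 (SE 0.231, 95% interval 1.07 to 2.11) with an adjusted p of 0.0557 and an unadjusted p from limma of 8.14e-05. It was called in 4 of 10 other settings. The adjusted p-values from limma were 0.0333 with a pseudocount of 0.1 and 0.00713 in the 4 libraries of the comparison alone. With a correction for GC content and length they were 0.00654 without and 0.0161 with a replicate block. In the other 6 settings S100P was at 0.05 or above, among them no TPM filter (0.119) and the replicate block (0.135). In HCT116 its TPM exceeded 1, the condition for testing, only with shUHRF1. Without any 1 library its log2 fold change lay between 1.45 and 1.73.

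Nor did any of the other 9 members pass the test in HCT116, where the spread was estimated over all 4 groups. In the 4 HCT116 libraries alone, S100A14, S100A10 and S100A4 had adjusted p-values from limma of 0.00713, 0.0161 and 0.0331. Their log2 fold changes were below the size of a call, and in 9 of 10 settings each had an adjusted p of 0.05 or above. S100A14 had a TPM of 219 and 240.3 in shUHRF1, below both shScr libraries, with a log2 fold change of -0.53 (SE 0.136, adjusted p of 0.312 from limma). S100A4 had 181 and 214 in shUHRF1, above both shScr libraries, with 0.46 (SE 0.170, adjusted p of 0.614). S100A16 had 195 and 202 in shUHRF1 against 241 and 260.5 in shScr, with -0.33 (SE 0.140, adjusted p of 0.736). The libraries of these 3 genes did not overlap with their controls. S100A10, at 468 and 506, S100A2, at 22.3 and 31.3, and S100A3, at 12.9 and 10.97 in shUHRF1, were above both shScr libraries, with log2 fold changes of 0.49, 0.47 and 0.30. S100A11 was below both shScr libraries at 267 and 287, with a log2 fold change of -0.16. S100A6, at 1817 and 2191, and S100A13, at 80.2 and 120.2, overlapped with their controls, with log2 fold changes of 0.06 and -0.05.

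After knockdown in UF1hypo, S100P and S100A3 rose and S100A4 and S100A14 fell, and S100A16 fell at an adjusted p just below 0.05. Of the 10 members, 2 were called higher, against 7.39% of the 13620 genes tested, and 1 was called lower, against 1.14%. At an adjusted p below 0.05 regardless of size, 2 were higher, against 10.4%, and 3 were lower, against 2.86%. The groups did not overlap for 3 members that were higher, against 30.6% of genes, and for 5 that were lower, against 18.3%. The median log2 fold change was -0.07 over the members and 0.04 over all genes tested. This comparison and that between the lines share the UF1hypo shScr libraries, and the knockdown in HCT116 shares HCT116 shScr with the latter, so the comparisons are not independent of each other.

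S100P rose. Its TPM was 2.74 and 1.92 in UF1hypo shScr against 14.1 and 14.3 in UF1hypo shUHRF1. The groups were well separated, and the ratio of the means was 6.09. In log2 units S100P rose by 2.2 (SE 0.222, 95% interval 1.69 to 2.71) with an adjusted p of 0.000489. From HCT116 shScr to UF1hypo shUHRF1 the mean TPM went from 0.667 ± 0.223 to 14.2 ± 0.116, a ratio of 21.3.

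S100A3 also rose, from a TPM of 33.9 and 43.2 in UF1hypo shScr to 113 and 70.8 in UF1hypo shUHRF1. The groups did not overlap, but the knockdown libraries lay far from each other. The change was 1.2 on the log2 scale (SE 0.252, 95% interval 0.62 to 1.78) with an adjusted p of 0.0166, and the ratio of the means was 2.38. The call was lost without UF1hypo shScr replicate 1 (adjusted p of 0.147 from limma), without UF1hypo shScr replicate 2 (0.0537), without UF1hypo shUHRF1 replicate 1, where the log2 fold change was 0.87, and in the 4 libraries alone (adjusted p of 0.096).

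S100A4 fell. Its TPM of 1519 and 1491 in UF1hypo shScr compared with 571 and 761 in UF1hypo shUHRF1. Both knockdown libraries were below both controls and above every HCT116 library, of which the highest had 214. S100A4 fell by 1.19 on the log2 scale (SE 0.169, 95% interval -1.58 to -0.80) with an adjusted p of 0.00276, and the mean was 2.26 times higher in shScr. Without UF1hypo shUHRF1 replicate 1 the log2 fold change was -0.98, with an adjusted p of 0.00438.

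S100A14 and S100A16 fell by less than the size of a call. The TPM of S100A14 was 619 and 592 in UF1hypo shScr against 345 and 396 in UF1hypo shUHRF1, with a log2 fold change of -0.71 (SE 0.133, adjusted p of 0.00997 from limma). That of S100A16 was 295 and 322 in UF1hypo shScr against 233 and 204 in UF1hypo shUHRF1, with -0.49 (SE 0.136, adjusted p of 0.0474). Without any 1 library, the adjusted p-values ranged from 0.0019 to 0.112 for S100A14 and from 0.0114 to 0.28 for S100A16. In 6 of 10 other settings S100A16 had an adjusted p of 0.05 or above, among them the replicate block (0.0951) and the 4 libraries alone (0.256), and S100A14 did so only in the 4 libraries alone (0.113). The knockdown libraries of both genes lay below the controls.

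S100A13, S100A11, S100A6, S100A2 and S100A10 did not pass the test after knockdown in UF1hypo. S100A13 had a TPM of 142 and 128 in UF1hypo shScr against 78.5 and 76.95 in UF1hypo shUHRF1, with a log2 fold change of -0.78 (SE 0.232, adjusted p of 0.0605 from limma). S100A11 had 403 and 392 in UF1hypo shScr against 501 and 569 in UF1hypo shUHRF1, with 0.42 (SE 0.129, adjusted p of 0.0668). S100A6 had 2660.3 and 2367 in UF1hypo shUHRF1, with -0.34 (SE 0.140, adjusted p of 0.156). The libraries of these 3 genes did not overlap with their controls. With the correction for GC content and length, their adjusted p-values from limma were 0.0163 for S100A13, 0.0133 for S100A11 and 0.00823 for S100A6. The log2 fold changes were then -0.88, 0.39 and -0.57, below the size of a call. Their adjusted p-values were 0.05 or above in 7, 8 and 8 of 10 other settings. S100A2 overlapped, at 183 and 131 in UF1hypo shUHRF1 against 132 and 137, with a log2 fold change of 0.20 (SE 0.217). In S100A13, 24.2% of the exonic bases are shared with a long noncoding RNA on the same strand and 10.6% with S100A1 on the opposite strand, and the strand setting of the counting is not given in the sources used here.

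S100A10 depended on a single library. Its TPM was 383 and 302 in UF1hypo shScr against 335 and 775 in UF1hypo shUHRF1, so that replicate 2 alone was high. The log2 fold change of 0.58 (SE 0.333, adjusted p of 0.301 from limma) was -0.02 without UF1hypo shUHRF1 replicate 2 and 1.19, with an adjusted p of 0.00648, without replicate 1. The difference between the replicates of that group changed with transcript GC content across genes, from a median log2 difference of 1.01 in the tenth with the lowest GC content to -0.56 in that with the highest. S100A10, with 47.5% the lowest of the members in GC content, had a log2 difference of 1.21 between these replicates. S100A3, at 58.6%, had -0.66 and S100P, at 52.2%, had 0.02. S100A2 and S100A4, both at 53.6%, had -0.48 and 0.41, so members of the same GC content differed in direction. The part of GC content in these values was not tested. With the medians of each library removed within bins of GC content and length, S100P, S100A3 and S100A4 were still called, at log2 fold changes that included 1.07 for S100A3 and -1.28 for S100A4, and S100A10 had 0.63 (adjusted p of 0.12).

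The response to the hairpin differed between the lines in S100A4. The difference of the log2 fold changes, UF1hypo minus HCT116, was -1.65 (SE 0.239, 95% interval -2.19 to -1.10) with an adjusted p of 0.00777. In HCT116 the shUHRF1 libraries were above the controls, and in UF1hypo they were below them. Of the 10 members, 1 was called lower in this test, against 0.559% of the 13781 genes tested, and 0 were called higher, against 4.54%. The call was lost without HCT116 shScr replicate 2, at an adjusted p of 0.0506, and without HCT116 shUHRF1 replicate 2, at 0.0663. The median difference was -0.17 over the members and 0.08 over all genes tested.

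For the other 9 members a difference between the responses was not shown. For S100P it was 0.61 with a 95% interval from -0.11 to 1.33 (adjusted p of 0.359 from limma), and 0.13 with a pseudocount of 0.1 (adjusted p of 0.927), and the ratios of the mean TPM were 6.01 in HCT116 and 6.09 in UF1hypo. For S100A3 it was 0.90 (SE 0.356, adjusted p of 0.221), and it was called without UF1hypo shUHRF1 replicate 2, at 1.23 with an adjusted p of 0.0196. S100A11 was lower than its controls in both HCT116 shUHRF1 libraries and higher in both UF1hypo shUHRF1 libraries, with a difference of 0.59 (SE 0.183, adjusted p of 0.119). Of 9 other settings, the adjusted p was 0.05 or above in 7 for S100A11 and in 8 for S100A3. The differences of the remaining members lay between -0.73 for S100A13 and 0.10 for S100A10.

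The summed TPM of the 10 genes in HCT116 was 3427 and 3426 with shScr and 3267 and 3806 with shUHRF1. In UF1hypo it was 6581 and 6719 with shScr and 5034 and 5365 with shUHRF1. All 4 UF1hypo libraries were above all 4 HCT116 libraries, and within UF1hypo the knockdown libraries were the lower ones. These sums were 0.343% of the TPM in both HCT116 shScr libraries and 0.658% and 0.672% in UF1hypo shScr. S100A6 and S100A4 made up most of the difference between the lines, S100A4 with 4.39% and 3.97% of the sum in HCT116 shScr and 23.1% and 22.2% in UF1hypo shScr. Its share was 11.3% and 14.2% in UF1hypo shUHRF1.

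**Figure D4:**
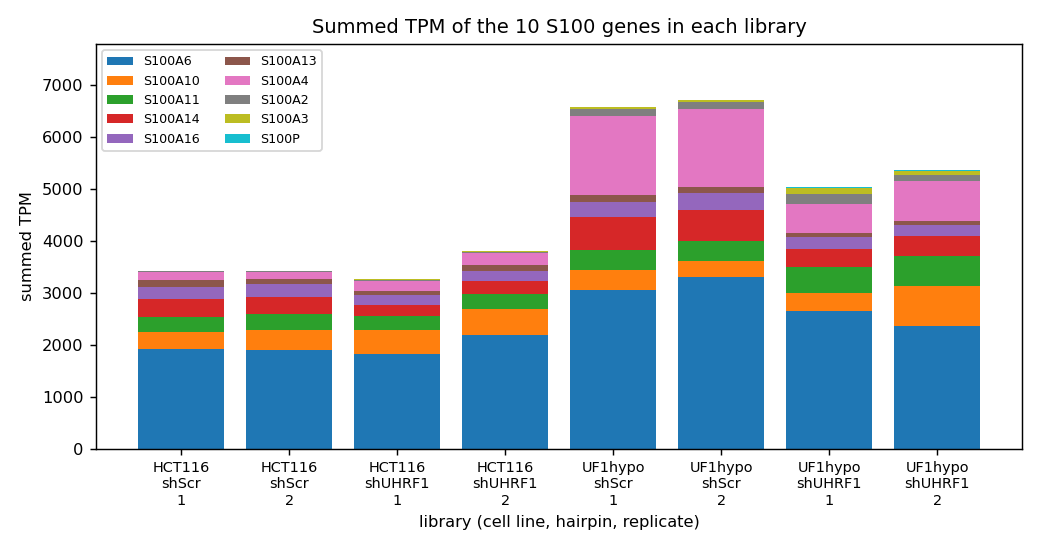
Summed TPM of the 10 S100 genes in each of the 8 libraries as stacked bars, divided by gene. The bars reach 3426 and 3427 in HCT116 shScr and 6581 and 6719 in UF1hypo shScr.

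Along chromosome 1 the members called between the lines lay side by side. From the lower end of S100A6 the gene midpoints were at 4.9 kb for S100A5, 12.3 kb for S100A4, 13.7 kb for S100A3 and 29.9 kb for S100A2, and all 4 were called higher in UF1hypo shScr. S100A5, which is not a member, had a TPM of 1.90 and 3.03 in HCT116 shScr and 17.8 and 13.03 in UF1hypo shScr, with a log2 fold change of 2.25 (SE 0.250, adjusted p of 0.00155 from limma). Beyond them S100A16, at 75.4 kb, S100A14, at 81.0 kb, and S100A13, at 90.5 kb, had log2 fold changes of 0.30, 0.87 and 0.40. Of the genes around this cluster that are not S100 genes, taken within 200 kb, 5 were tested and 0 were called between the lines by limma. With the surroundings of S100A10 and S100P included, 13 of 25 such genes were tested and 0 were called. Over all genes tested 2.59% were called higher and 0.949% lower, so 0 among so few genes does not set the neighbours apart.

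After knockdown in UF1hypo the adjacent genes did not share a direction, with -1.19 for S100A4, 1.2 for S100A3, 0.20 for S100A2 and -0.21 for S100A5. S100A7, or psoriasin, at -75.4 kb, had a listed TPM of 0 with shScr and of 2.88 and 1.93 with shUHRF1 in this line, and it was called higher with an adjusted p of 0.00253. Around this cluster 6 genes that are not S100 genes were tested in this comparison, 15 with the surroundings of S100A10 and S100P. Of these 1 was called higher, against 7.39% of all genes, the natriuretic peptide receptor gene NPR1 at 151.7 kb. Its TPM was 0.0550 and 0 in UF1hypo shScr against 2.86 and 1.93 in UF1hypo shUHRF1, with an adjusted p of 0.00153. S100A7 and NPR1 exceeded a TPM of 1, the condition for testing, only in UF1hypo shUHRF1, so a fall could not have been called. Depth behind values this low is unknown, and S100A7 and NPR1 were called higher in UF1hypo than in HCT116 in the test of the difference at adjusted p-values of 0.046 and 0.0257, calls which were lost without any 1 of the HCT116 or UF1hypo shScr libraries and, of 9 other settings, were kept in 4 for S100A7 and in 6 for NPR1.

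**Figure D5:**
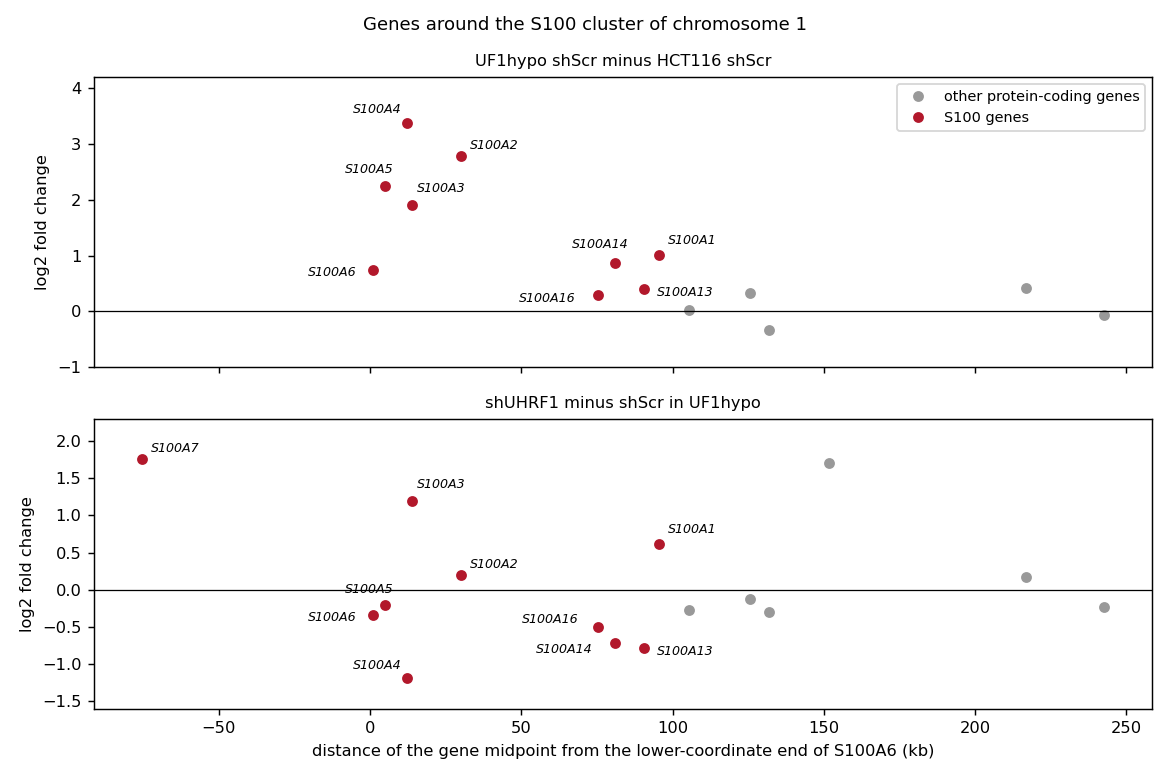
Log2 fold change of each tested gene around the S100 genes of chromosome 1 against the distance of its midpoint from the lower end of S100A6 in kb, for UF1hypo shScr against HCT116 shScr (top) and for the knockdown in UF1hypo (bottom). S100 genes are red and other genes grey, and between the lines S100A5, S100A4, S100A3 and S100A2 have the highest values, from 1.91 to 3.39.

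Of the 10 S100 genes outside the members, 4 exceeded a TPM of 1 in any library and 4 were listed at 0 in all. S100A1 reached 8.40 and S100B 1.03, and neither was called in any comparison. None of the 7 genes of the fused S100 type, such as filaggrin, exceeded a TPM of 1. The 9 listed pseudogenes of S100A genes did not exceed a TPM of 0.219, and 7 of them were listed at 0 throughout.

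Among 15 genes for known partners of S100 proteins, 13 were tested between the lines. Of these 1 was called lower, against 0.949% of all genes tested, and 0 were called higher, against 2.59%. SYT1, a synaptotagmin in the export complex of S100A13, was lower in the clone, at 26.5 and 25.5 in HCT116 shScr and 4.39 and 4.83 in UF1hypo shScr, with a log2 fold change of -2.27 (SE 0.276, adjusted p of 0.00252 from limma). None of 14 partners tested was called after knockdown in UF1hypo, against 7.39% of genes called higher and 1.14% called lower. At an adjusted p below 0.05, 2 were higher, against 10.4% of genes, and 1 was lower, against 2.86%. Counts this small do not set the partners apart from all genes. ANXA2, the partner of S100A10, was higher at 1527 and 1644 against 1054 and 1041, with a log2 fold change of 0.60 (adjusted p of 0.0125). MYH9, the myosin heavy chain that S100A4 binds, was higher at 415 and 332 against 247 and 265, with 0.54 (adjusted p of 0.0468), where S100A4 was lower. In HCT116 0 of 13 partners had an adjusted p below 0.05 by limma after knockdown, where 0.0708% of all genes tested were called.

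The genes whose levels ran most like those of a member were those with the smallest root mean square difference in centred log2(TPM + 1) over the 8 libraries, among 8977 protein-coding genes with a mean TPM above 10. For S100A3 these were HELZ2 (0.161), PLEKHA4 (0.175) and SHFL (0.183), the first and last of them interferon-induced genes. For S100A4 the nearest genes were less alike than those for S100A3, with RTEL1-TNFRSF6B (0.452), PROM2 (0.500) and S100A2 (0.543). S100A2 in turn was nearest to FXYD3 (0.304), KLHDC8B (0.312) and IFITM3 (0.313), and S100P to GRHL3 (0.312), a transcription factor of epithelial barriers. S100A6 was nearest to JUNB (0.104), S100A14 to DKK1 (0.126) and S100A16 to HEBP1 (0.070). These 3 members varied little themselves, so their small distances do not show closer companions. The root mean square of their own centred values was 0.305, 0.503 and 0.246. It was 1.36 for S100A4, 1.27 for S100A3, 1.34 for S100A2 and 1.17 for S100P. The libraries share their groups and these distances are a description.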

How the data were processed

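PolyA RNA-seq of 8 libraries in 4 groups of 2 was used. Per the methods and the labels, the authors used Fastp for trimming, HISAT2 2.0.4 for alignment to GRCh38 and StringTie 2.1.4 for gene abundances. The deposited coverage values are mean read depth per base and are not scaled for library depth. The deposited FPKM values were normalized by the authors for gene length and aligned bases. The deposited TPM values were normalized by the authors for gene length and to 1000000 per library. Coverage divided by FPKM gave the aligned bases of a library. The authors tested genes with DESeq2, which takes counts and so was not used here. The methods name a pair of harvest days for the pools, and which of them applies to these libraries is not given in the sources used here.

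Records were summed per gene identifier, and 19960 identifiers were protein-coding in GENCODE. log2(TPM + 1) of all libraries was fitted with 4 groups in limma 3.58.1 (R 4.3.3) with a variance trend, which left 4 residual degrees of freedom. A comparison tested genes that passed a TPM of 1 in any of its libraries, and p-values were adjusted by Benjamini-Hochberg. The fit was tested on simulated data. Python 3.11.15, pandas 2.3.3, numpy 2.4.6 and matplotlib 3.10.9 were used for the rest. Promoters came from RefSeq. The members, gene lists and tests were chosen with earlier results of these data known. All members were named, with UHRF1, list genes that were called or passed a TPM of 1, and up to 3 genes most alike, and some items the rule would name are not reported here. Alternatives were a pseudocount of 0.1, no filter, FPKM, median-ratio scaling, no variance trend, all annotated genes, a replicate block, a correction for GC content and length with and without that block, the 4 libraries of a comparison alone, and each library left out. Groups of 2 are too small for a test of outlying libraries. Protein and DNA methylation were not analysed here.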

Additional observations from a re-analysis of the deposited data

Results flagged for a closer look

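The effect of the UHRF1 hairpin on S100A4 differed between the lines by a test of the difference itself. The log2 fold change in UF1hypo minus that in HCT116 was -1.65 (SE 0.239) with a Benjamini-Hochberg adjusted p from limma of 0.00777. The mean TPM of S100A4 went from 143 to 197 in HCT116 and from 1505 to 666 in UF1hypo.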

How the results depend on the processing

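Direction could not change without a filter, without a variance trend, with all annotated genes, with the replicate block or in the 4 libraries alone. Most member results were not called to begin with, and an adjusted p that crossed 0.05 without a change of call counted as kept. Over the 10 members and 4 comparisons, 377 of 390 values under other settings kept their direction and their status as called or not. Of the rest, 1 lost its call, 6 gained one and 6 changed sign. With a library left out these numbers were 180, 8, 2 and 10 of 200. Members called in the HCT116 knockdown numbered 0, and 1 (S100P) with a pseudocount of 0.1, with the GC and length correction, with that correction and the replicate block, and in the 4 libraries alone. All genes called there numbered 9, and 30 with a pseudocount of 0.1, 2 without a filter, 3 with median-ratio scaling, 5 without a variance trend, 3 with all annotated genes, 1 with the replicate block, 70 with the GC and length correction, 65 with both, 89 in the 4 libraries alone and 0 to 0 without 1 library. The count in UF1hypo was 1162, and 749 with FPKM, 563 in the 4 libraries alone and 655 to 2255 without 1 library. The count for the difference was 702, and 448 with a pseudocount of 0.1 and 171 to 2142 without 1 library, where members called numbered 0 to 2. Between the lines it was 455, and 149 to 190 without 1 library. Values near 0 changed sign. S100A6 in HCT116 was -0.0026 with the GC and length correction, with and without the block, and -0.0721 to 0.20 without 1 library. S100A13 in HCT116 was -0.34 to 0.24, S100A2 in UF1hypo -0.0435 to 0.44 and S100A10 in UF1hypo -0.0213 to 1.19 without 1 library. The difference for S100A10 was -0.0108 with median-ratio scaling and -0.51 to 0.70 without 1 library, and its value between the lines was 0.0158 with median-ratio scaling, 0.0342 with the GC and length correction, with and without the block, and -0.20 to 0.14 without 1 library. Leaving out a library leaves fewer samples, and otherwise the cause was not tested. The labels do not say that replicate numbers pair libraries, and the correlations of the replicate differences between groups ran from -0.402 to 0.055. The replicate block changed 0 of 40 calls of members, but moved 2 adjusted p-values past 0.05, for S100A16 after knockdown in UF1hypo and S100P between the lines. With a pseudocount of 0.1 the difference for S100P was 0.13 in place of 0.61. Without counts, the reads behind a gene limit low values such as those of S100P by an unknown amount.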
